A study of Mus musculus with 8 samples.

Results

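The CaV1.1 channel complex and the ryanodine receptors were followed here as 7 genes, taken by symbol from the 19465 genes that the probe set reads: *Cacna1s*, *Cacnb1*, *Cacng1*, *Cacna2d1*, *Stac3*, *Ryr1* and *Ryr3*. In skeletal muscle, CaV1.1 sits in the transverse tubules, senses the voltage of the membrane and opens the ryanodine receptors of the sarcoplasmic reticulum through a mechanical link, so that calcium is released and the fiber contracts. *Cacna1s* encodes the α1S subunit, which holds the pore and the voltage sensors. *Cacnb1*, *Cacng1* and *Cacna2d1* encode the auxiliary β1, γ1 and α2δ-1 subunits, *Stac3* encodes an adaptor that the channel needs for its place and function in the membrane, *Ryr1* encodes the main release channel of skeletal muscle, and *Ryr3* encodes a second release channel that is more widely found in immature muscle.

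The data are 8 Visium sections of embryonic mouse diaphragm, fixed and embedded in paraffin, cut at 5 µm and read with gene probes on spots 55 µm wide at a spacing of 100 µm. Each of the 3 mutant groups has a single section, so that no mutant value has a replicate and the tests take its spread from the controls. Controls were read at E14.5 (3 sections) and at E18.5 (2 sections), and per the methods a control embryo carried at least 1 working allele of CaV1.1 and of β-catenin, so that controls can be heterozygous. The CaV1.1 KO was read at E14.5 (1 section) and at E18.5 (1 section). These embryos are labeled dysgenic, a name that the paper gives with the genotype mdg/mdg. They have the genotype CaV1.1 -/-, carry the loss in all tissues, and came from crosses of heterozygous mice, some of which also carried HSA-Cre and floxed β-catenin. The β-cat cKO was read at E18.5 (1 section) and combines HSA-Cre, driven by a skeletal muscle actin promoter, with 2 floxed β-catenin alleles, so that deletion is limited to cells in which that promoter is active. Both parents in that cross were heterozygous for CaV1.1, and the label does not give the *Cacna1s* alleles of the cKO embryo, which can therefore be wild type or heterozygous for the channel. Sections, and not spots, are the replicates, and a spot covers several cells or parts of them.

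The sections held between 14179161 and 82859104 UMIs (unique molecular identifiers, counted molecules) under tissue. Muscle spots were those with a high mean level of 8 muscle genes, none of them a member, and numbered 565, 578 and 576 in the E14.5 controls, 3100 and 2204 in the E18.5 controls, 499 and 817 in the KO at E14.5 and E18.5, and 1578 in the β-cat cKO. The 8 muscle genes were detected in every section and summed to between 15984 and 130880 raw CPM (UMIs scaled to the same total in every sum) in muscle spots. Markers of other tissues were present in muscle spots too. Cartilage markers summed to 959.5 raw CPM in E18.5 control 1 against 17.5 to 61.9 in the other sections, and hepatocyte markers ranged from 0.54 to 782 raw CPM. Their part in the results below was not tested. UMIs were summed over the spots of a region and section, scaled by TMM (a factor that keeps the middle of all genes level) to CPM, and tested with edgeR. A gene is called where the adjusted p is under 0.05 over all genes tested, and errors of log2 fold changes are standard errors. Levels can be compared between sections for 1 gene but not between genes, since each gene has its own probes.

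On GRCm38 (GENCODE vM21) *Cacna1s* lies at chr1:136052750-136119822, *Cacnb1* at chr11:98001508-98023034, *Cacng1* at chr11:107703218-107716522, *Cacna2d1* at chr5:15934691-16374511, *Stac3* at chr10:127501686-127508823, *Ryr1* at chr7:29003344-29125179 and *Ryr3* at chr2:112631355-113217096. The sequence before the start is shown for *Cacna1s*, *Cacna2d1* and *Ryr1*, the 3 members for which the table used here held at least 100 bases before the annotated gene. The stretches come from RefSeq (GRCm38.p6), in which 4 of the 7 members were matched (*Cacnb1* only with starts inside its annotated gene), and end where the annotated gene begins. They are chr1:136052561-136052749 (+) for *Cacna1s*, chr5:15934441-15934690 (+) for *Cacna2d1* and chr7:29125180-29125401 (−) for *Ryr1*. Capitals mark matches on either strand to the E-box CANNTG, the M-CAT element CATTCC or the MEF2 motif. The E-box CAGCTG is also counted under CANNTG.
Cacna1s: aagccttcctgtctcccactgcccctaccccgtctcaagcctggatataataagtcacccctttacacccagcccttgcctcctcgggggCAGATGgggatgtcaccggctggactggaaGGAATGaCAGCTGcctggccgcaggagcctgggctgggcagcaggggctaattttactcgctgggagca
Cacna2d1: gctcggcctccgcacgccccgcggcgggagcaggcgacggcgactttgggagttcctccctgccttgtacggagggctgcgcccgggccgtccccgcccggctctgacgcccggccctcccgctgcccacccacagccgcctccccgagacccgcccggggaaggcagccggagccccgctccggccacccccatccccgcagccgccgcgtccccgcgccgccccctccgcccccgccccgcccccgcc
Ryr1: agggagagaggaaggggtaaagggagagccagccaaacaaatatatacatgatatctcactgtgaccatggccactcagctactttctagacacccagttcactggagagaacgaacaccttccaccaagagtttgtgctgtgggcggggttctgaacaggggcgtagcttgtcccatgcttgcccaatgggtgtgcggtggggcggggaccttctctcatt

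The stretch of *Cacna1s* held 2 E-boxes, of which 1 is CAGCTG, and 1 M-CAT element. In the same window of 32851 mouse promoters, 57.1% held an E-box, 9.77% held CAGCTG and 10.1% held an M-CAT element. The stretches of *Cacna2d1* and *Ryr1* held none of these letters, and no stretch held a MEF2 match, which 2.29% to 2.92% of promoters did in windows of these lengths. The stretch of *Cacna2d1* was 82.4% G and C against a median of 52.4% over the promoters, whereas those of *Cacna1s* and *Ryr1* were 60.8% and 53.6%. These matches describe the letters only.

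All 7 members were higher in muscle spots than in the other spots of the same section, in 8 of 8 sections. In the E14.5 controls the log2 fold change ran from 1.21 ± 0.08 for *Cacna2d1* to 2.03 ± 0.15 for *Cacng1*, and in the E18.5 controls from 1.55 ± 0.10 for *Cacna2d1* to 2.33 ± 0.20 for *Cacna1s*. All 7 were called higher in each of the 5 groups, where 21.6% of 15300 genes were called higher in the E14.5 controls, 29.2% in the E18.5 controls, 6.84% in the E14.5 KO, 9.59% in the E18.5 KO and 18.6% in the β-cat cKO. Muscle spots were chosen without any member but by other muscle genes of the same spots, with which members can vary, so that this contrast describes the spots chosen and is no independent evidence. In the β-cat cKO, the log2 fold change of *Cacna1s* was 3.36 ± 0.29 and that of *Cacng1* was 3.12 ± 0.23. Neither was called different from that of the E18.5 controls (differences of 1.03 and 1.09 on the log2 scale). The value of *Cacna1s* rests on 113 UMIs in the other spots of 1 section. Between stages, the muscle to other difference grew for *Cacnb1* alone among the members (by 0.81 ± 0.18 on the log2 scale, edgeR adjusted p = 0.021, with 12.6% of genes called in this direction), and 5 of 10 alternatives did not call it, among them those without E14.5 control 2 (edgeR adjusted p = 0.086), without E14.5 control 3 (0.061) and without E18.5 control 2 (0.53 on the log2 scale, edgeR adjusted p = 0.060). In Moran's I, a deposited score of how far like values lie together over a section, *Ryr1* stood above 97.1% to 99.6% of the scored genes in the 8 sections and *Cacna1s* above 52.4% to 93.5%.

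Between E14.5 and E18.5 in control muscle, all 7 members rose. *Cacna1s*, *Cacnb1*, *Cacng1* and *Ryr1* rose most, *Ryr3* by less, and *Stac3* and *Cacna2d1* least. *Cacna1s* stood at 16.4, 14.9 and 18.52 TMM-scaled CPM in the 3 control sections of E14.5, and reached 84.4 and 87.2 in those of E18.5, a log2 fold change of 2.38 ± 0.10 (edgeR adjusted p = 1.4e-06). The stages did not overlap, and the share of all genes without such an overlap was not counted.

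Among the auxiliary subunits, *Cacng1* stood at 71.5, 58.3 and 59.1 at E14.5 and at 402.6 and 381 at E18.5 (log2 fold change 2.64 ± 0.12, edgeR adjusted p = 1.4e-06), the steepest rise of the 7. *Cacnb1*, whose product carries the channel to the membrane, went from 80.0, 60.2 and 59.7 to 302 and 298 (2.17 ± 0.13, edgeR adjusted p = 6.7e-06). *Cacna2d1* was the flattest, at 339, 306 and 370 at E14.5 and 487 and 527 at E18.5 (0.58 ± 0.11, edgeR adjusted p = 0.0023). For each of these genes, the lowest E18.5 section still lay above the highest E14.5 section. *Stac3* stood at 79.8, 59.4 and 62.3 and then at 116 and 118 (0.80 ± 0.12, edgeR adjusted p = 7.7e-04).

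*Ryr1* stood at 306, 257 and 316 TMM-scaled CPM at E14.5 and at 1160 and 1333 at E18.5 (log2 fold change 2.09 ± 0.13, edgeR adjusted p = 6.3e-06). *Ryr3* stood at 40.0, 31.3 and 35.0 and then at 93.4 and 90.3 (1.38 ± 0.11, edgeR adjusted p = 2.0e-05). Both release channels therefore rose without overlap of the stages, but not in proportion. Per 100 UMIs of *Ryr1*, a ratio that no scaling touches, *Ryr3* had 13.1, 12.2 and 11.1 UMIs in the E14.5 controls and 8.05 and 6.77 in the E18.5 controls. *Cacna2d1* had 111, 119 and 117 UMIs per 100 of *Ryr1* at E14.5 and 42.0 and 39.6 at E18.5, and *Stac3* had 26.04, 23.1 and 19.7 and then 9.96 and 8.83. The same ratio overlapped between stages for *Cacnb1*, at 18.9 to 26.1 and 22.4 to 26.01. These ratios were not tested.

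The members called higher, 7 of 7, stand beside 33.2% of the 14843 genes tested, and their median log2 fold change of 2.09 beside −0.01 for all genes. The size depends on what muscle RNA is measured against. With libraries scaled to their total UMIs, the median of all genes moved to −0.74, *Cacna2d1* and *Stac3* came to −0.14 and 0.08 and were not called, and the other 5 members were still called higher. With libraries scaled to the 8 muscle genes, the median of all genes moved to −3.21 and all 7 members turned to negative values, from −0.54 for *Cacng1* to −2.61 for *Cacna2d1*, so that the members rose less than the muscle genes while staying above the median of all genes. The split of called genes was 4933 higher and 4798 lower with TMM and 2260 higher and 9042 lower with total UMIs.

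**Figure D1:**
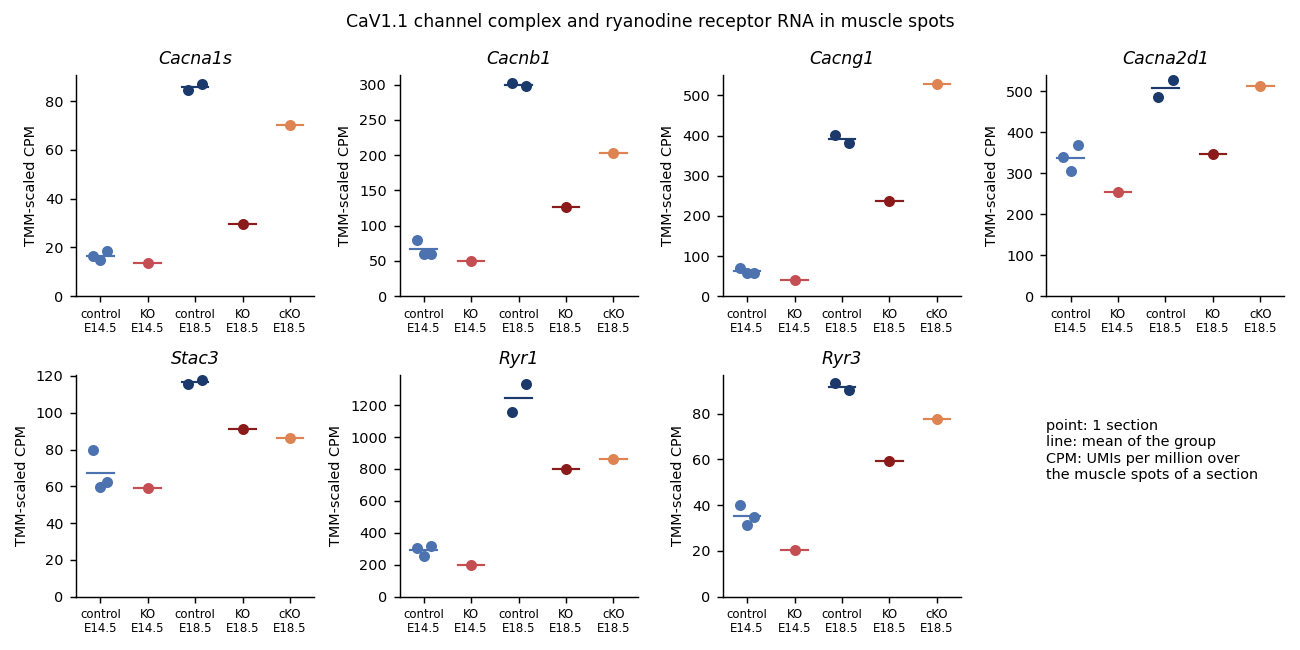
TMM-scaled CPM (y axis, from 0) of each member in the muscle spots of each section, by group (x axis); a point is 1 section and a line the mean of its group. In each panel the 2 control sections at E18.5 lie above the 3 at E14.5, and the KO section lies below the controls of its stage. The share of all genes with the same order of sections was not counted. Scaled to the 8 muscle genes, all 7 changes with stage and those of 6 members in the KO at E18.5 turn.

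Other genes of the pathway were read from fixed lists. Of 27 further triad, sarcoplasmic reticulum and store-operated entry genes, 24 rose with age and 1 fell, with a median log2 fold change of 1.90. The largest rises were those of *Pvalb*, a calcium buffer of fast fibers (7.27), *Casq1*, the calcium store protein of the reticulum (4.28), *Atp2a1*, the fast calcium pump (3.88), *Trdn* (3.11), *Jph1*, a protein that ties the reticulum to the tubule (2.78), *Jsrp1* (2.69), *Srl* (2.68) and *Stim1*, the sensor of calcium in the reticulum (2.67). Of 20 genes tested, of 25 listed, for other voltage-gated calcium channel subunits, Stac proteins and *Ryr2*, 4 rose and 11 fell, with a median of −0.53. *Cacna1b* (−2.40), the T-type channel gene *Cacna1h* (−2.14), *Cacng8* (−1.96), *Cacna1i* (−1.73), *Cacng4* (−1.69) and *Cacnb4* (−1.45) fell, and *Stac2* (1.39) and *Cacna2d3* (1.33) rose. *Cacna1b*, *Cacna1i*, *Cacng8*, *Cacnb4* and *Cacna2d3* rest on few UMIs, at most 43, 58, 97, 90 and 178 in any section.

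The genotype was read first from the mutated gene itself. *Cacna1s* RNA was present in both KO sections, with 337 UMIs in the muscle spots of the KO at E14.5 (16.2 raw CPM, exact Poisson 95% interval 14.52 to 18.03) and 511 in that at E18.5 (31.3, 28.6 to 34.1). The intervals cover counting error only. Where the probes for *Cacna1s* lie relative to the mutation is not given in the sources used here, so that this RNA does not check the genotype. In the same way, *Ctnnb1*, the β-catenin gene, did not differ beyond the error in the muscle spots of the β-cat cKO (log2 fold change −0.07 ± 0.12, edgeR adjusted p = 0.76), which also hold cells in which Cre is not active.

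At E14.5 the KO section lay below all 3 controls for each of the 7 members, but only *Ryr3* was called. The share of all genes for which it lay below all 3 controls was not counted. *Ryr3* stood at 20.4 TMM-scaled CPM in the KO against 31.3 to 40.0 in the controls, a log2 fold change of −0.79 ± 0.15 (edgeR adjusted p = 0.044), where 1.6% of 14843 genes were called lower. The call was lost without E14.5 control 3 (−0.80, edgeR adjusted p = 0.14) and without control 1 (−0.69, edgeR adjusted p = 0.055). Control 3 is also the only E14.5 section made with the later Space Ranger version, so that the value without it is also the value within 1 version. *Cacna1s* stood at 13.4 against 14.9 to 18.52 (−0.30 ± 0.14, edgeR adjusted p = 0.36), *Cacng1* at 39.9 against 58.3 to 71.5 (−0.66 ± 0.15, edgeR adjusted p = 0.083) and *Ryr1* at 196 against 257 to 316 (−0.58 ± 0.17, edgeR adjusted p = 0.15). *Cacnb1*, *Cacna2d1* and *Stac3* had values of −0.41, −0.41 and −0.19 and were not called. A sum of the 8 muscle genes of 15984 raw CPM in the KO against 21259 to 26794 in the controls moved in the same direction, and its part in these values was not tested.

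At E18.5 in the KO, 6 of the 7 members were called lower, where 15.4% of 14843 genes were. *Cacna1s*, the mutated gene itself, fell most, to 29.5 TMM-scaled CPM against 84.4 and 87.2 in the controls (log2 fold change −1.54 ± 0.15, edgeR adjusted p = 0.0013), which is 65.6% lower. *Cacnb1* fell to 127 against 302 and 298 (−1.24 ± 0.19, edgeR adjusted p = 0.0046). The KO values of both lay below the 2 controls, and the gap between 2 sections is no measure of the spread between embryos.

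*Cacng1* stood at 237 in the KO against 402.6 and 381 (−0.72 ± 0.16, edgeR adjusted p = 0.015) and *Cacna2d1* at 346 against 487 and 527 (−0.55 ± 0.16, edgeR adjusted p = 0.037). *Ryr1* stood at 799 against 1160 and 1333 (−0.64 ± 0.18, edgeR adjusted p = 0.035) and *Ryr3* at 59.4 against 93.4 and 90.3 (−0.63 ± 0.15, edgeR adjusted p = 0.021). The values of these 4 members lay between −0.72 and −0.55. *Stac3* stood at 91.0 against 116 and 118 and was not called (−0.36 ± 0.17, edgeR adjusted p = 0.16). The call of *Cacna2d1* was lost without E14.5 control 3, E18.5 control 1 or E18.5 control 2 (edgeR adjusted p = 0.057, 0.057 and 0.093), and that of *Ryr1* without E14.5 control 3 or E18.5 control 2 (0.066 and 0.096). In a bulk sum over spots, fewer muscle cells and less RNA per cell cannot be told apart.

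The direction of these values depended on the scaling, and *Cacna1s* and *Cacnb1* were the lowest of the 7 under each. Scaled to total UMIs, the median of all genes moved to 0.54, *Cacna1s* (−1.0) and *Cacnb1* (−0.70) were still called lower, and the other 5 members were between −0.18 and 0.19 and not called, which puts those 5 below the median of all genes too. Scaled to the 8 muscle genes, which summed to 70423 raw CPM in the KO against 127525 and 130880 in the controls, the median of all genes moved to 1.42. *Cacna1s* then came to −0.12 and *Cacnb1* to 0.17, neither called, and the other 5 turned to higher values of 0.69 to 1.06, all below the median of all genes. Genes called split into 1576 higher and 2282 lower with TMM and into 7295 and 752 with total UMIs. Per 100 UMIs of *Ryr1*, *Cacna1s* had 3.69 UMIs in the KO against 7.28 and 6.54 in the controls, and *Cacnb1* 15.9 against 26.01 and 22.4, whereas *Cacng1* at 29.7 lay between the controls at 34.7 and 28.6.

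The log2 fold change of the KO for *Cacna1s* was lower at E18.5 than at E14.5, with a difference of −1.25 ± 0.20 (edgeR adjusted p = 0.024), where 4.43% of genes were called in that direction. It was not called without E14.5 control 3 (edgeR adjusted p = 0.069). The replicate block also lost this call (edgeR adjusted p = 0.095). For *Cacnb1* the difference was −0.84 ± 0.25 (edgeR adjusted p = 0.087), and for the other 5 members it lay between −0.17 and 0.16. In terms of levels, *Cacna1s* went from 13.4 to 29.5 between the KO sections of the 2 stages and from a mean of 16.6 ± 1.8 (SD, n = 3) to 84.4 and 87.2 in controls. *Cacng1* went from 39.9 to 237 in the KO.

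Of the 27 further triad and reticulum genes, 15 fell and 1 rose in the KO at E18.5, with a median of −0.72 beside 0.00 for all genes. *Srl* (−1.46), *Casq2* (−1.38), *Jph2*, which holds the tubule and the reticulum together (−1.37), *Atp2a1* (−1.30), *Mrln* (−1.29), *Cav3*, the muscle caveolin (−1.28), *Tmem38a* (−1.03) and *Casq1* (−0.98) fell most. Of the 20 other channel genes, 6 rose and 1 fell, to be read beside the split of all called genes with TMM given above. *Cacna1d* (1.66) and *Cacna1c* (0.87), which encode the L-type pores CaV1.3 and CaV1.2, rose, as did *Cacna1i* (2.45), *Cacnb4* (1.91), *Cacnb2* (0.88) and *Cacng4* (0.85), and *Cacng6*, which encodes a γ subunit close to γ1, fell (−0.91). In the KO, *Cacna1i* rests on 47 UMIs, *Cacnb4* on 66, *Cacng4* on 103 and *Cacna1d* on 163. Of 23 genes of this list tested between muscle and other spots of the E18.5 controls, 15 were lower in muscle and 3 higher, with a median of −1.02. The part of other tissue in the muscle spots of the KO was not tested for these rises. At E14.5 in the KO only *Stac2* (−1.69) and *Stim1* (−0.67) of the 2 lists were called. The difference between stages was called for *Stac2* (1.46), *Cav3* (−1.36) and *Jph2* (−1.08).

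In the β-cat cKO at E18.5, no member was called by edgeR, beside 3.35% of 14843 genes called higher and 5.82% lower. At an unadjusted p under 0.05, a looser threshold for which the share of all genes is not given here, the values of 4 members passed. The DESeq2 alternative called 3, *Cacnb1*, *Cacng1* and *Ryr1*. *Cacng1* stood at 528 TMM-scaled CPM against 402.6 and 381 in the controls (log2 fold change 0.43 ± 0.15, edgeR adjusted p = 0.12), *Cacnb1* at 203 against 302 and 298 (−0.56 ± 0.18, edgeR adjusted p = 0.10) and *Ryr1* at 862 against 1160 and 1333 (−0.53 ± 0.18, edgeR adjusted p = 0.11). *Cacng1* was the only member above both controls. *Cacna1s* at 70.2, *Ryr3* at 77.7 and *Stac3* at 86.4 lay below both controls, and *Cacna2d1* at 513 lay between them. Per 100 UMIs of *Ryr1*, *Cacng1* had 61.2 UMIs in the cKO against 34.7 and 28.6. The KO and the cKO at E18.5 are compared with the same 2 controls.

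Of the other channel genes, *Stac2* rose in the cKO (1.75), with 2787 UMIs in muscle spots against 1022 and 1008 in the controls, and *Cacng4* (0.91) and *Cacna1g* (0.65) rose as well. Of the triad and reticulum genes, *Srl* (−1.34), *Mrln* (−0.86), *Stim1* (−0.71) and *Mtm1* (−0.61) fell and none rose.

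**Figure D2:**
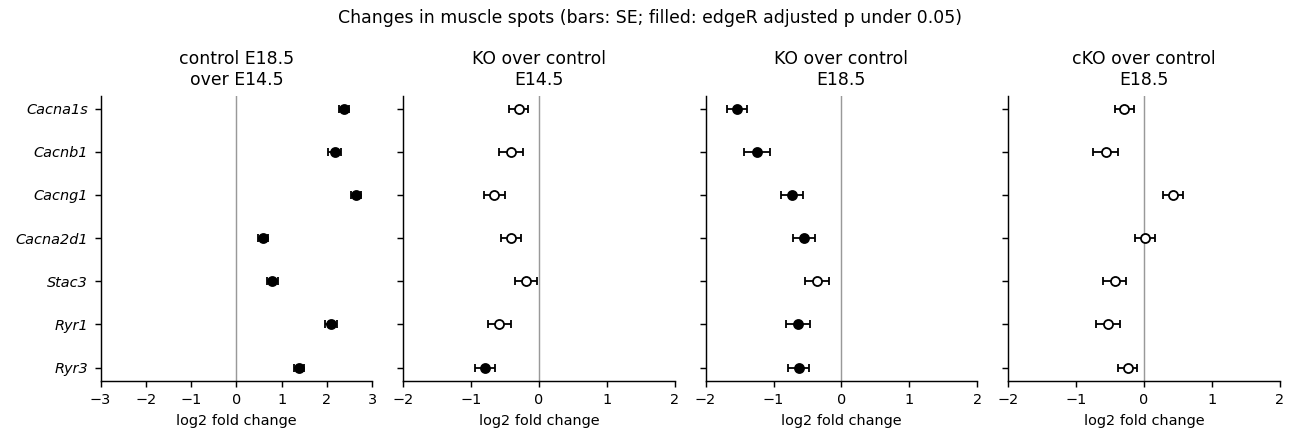
Log2 fold change (x axis) with its standard error (bars) of each member (y axis) in muscle spots for the 4 comparisons of stage and genotype; filled points are called at an edgeR adjusted p under 0.05. All 7 are filled on the right for stage, 6 on the left for the KO at E18.5 (farthest *Cacna1s* at −1.54), 1 for the KO at E14.5 and 0 for the cKO; scaled to the 8 muscle genes, the values for stage turn negative and those of 6 members for the KO at E18.5 turn positive.

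The position of the members along the fibers was read from the center of the muscle, where the motor endplates lie, and from its periphery at the tendon. Central spots were the 15% scoring highest for 8 genes of the endplate region, and peripheral spots the 15% scoring highest for 4 myotendinous genes, none of them a member. These spots are defined by expression and need not lie in the middle or at the end of the fibers. Central spots lay a median of 608 and 700 µm, and peripheral spots 173 and 200 µm, from the nearest spot outside muscle in the E18.5 controls. In the KO at E18.5 the medians were 264.6 µm for central spots and 173 µm for both intermediate and peripheral ones, and in the β-cat cKO they were 400 µm and 173 µm for central and peripheral spots. The section was kept as a block. *Ryr3* exceeded its peripheral level centrally in 8 of 8 sections, and *Cacng1* was lower in the center in 4 of 4 sections at E18.5.

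In E14.5 controls 1, 2 and 3, central *Ryr3* stood at 50.4, 42.4 and 42.7 TMM-scaled CPM and peripheral *Ryr3* at 25.8, 19.0 and 27.7 (log2 fold change 0.96 ± 0.10, edgeR adjusted p = 1.3e-08). Intermediate spots lay between, at 39.9, 31.7 and 35.2. In the E18.5 controls *Ryr3* stood at 95.5 and 90.4 centrally against 75.3 and 69.3 peripherally (0.36 ± 0.07, edgeR adjusted p = 8.4e-05). There, intermediate spots at 99.1 and 97.1 were no lower than the center. Scaled to the 8 muscle genes, which moved the median of all genes to −0.14, the E18.5 value came to 0.21 and was not called (edgeR adjusted p = 0.13).

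*Cacng1* was not called between center and periphery at E14.5, at 84.3, 71.9 and 63.3 against 77.3, 76.1 and 60.1 (0.02 ± 0.09, edgeR adjusted p = 0.91). In the E18.5 controls it stood at 348 and 341 in the center, 389 and 362 in intermediate spots and 530.5 and 536 in the periphery (−0.63 ± 0.05, edgeR adjusted p = 9.4e-11). The periphery was highest in both sections. Tendon markers, which summed to 775 and 1021 raw CPM in the periphery against 225 and 231 in the center of the E18.5 controls, moved with it, and their part was not tested.

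At E14.5, 4 members were called higher in the center, where 12.2% of 14119 genes were, and 0 lower, where 8.83% were: *Ryr3*, *Cacna2d1* (0.40 ± 0.06, edgeR adjusted p = 1.3e-06), *Ryr1* (0.33 ± 0.06, edgeR adjusted p = 8.2e-05) and *Cacnb1* (0.23 ± 0.08, edgeR adjusted p = 0.045). The call of *Cacnb1* was lost when control 1 or control 2 was left out (edgeR adjusted p = 0.22 and 0.21). At E18.5, 1 member was called higher, where 11.6% of genes were, and 2 lower, where 9.15% were. *Cacna1s*, at 66.0 and 76.1 in the center against 85.1 and 89.5 in the periphery, was the second one lower (−0.30 ± 0.07, edgeR adjusted p = 0.0022), a call that was lost without E18.5 control 1 (edgeR adjusted p = 0.16). The difference between stages was tested itself and was called lower for *Cacng1* (−0.65 ± 0.10, edgeR adjusted p = 3.2e-05), *Ryr3* (−0.60 ± 0.12, edgeR adjusted p = 0.0013), *Cacna2d1* (−0.47 ± 0.08, edgeR adjusted p = 1.1e-04) and *Ryr1* (−0.38 ± 0.08, edgeR adjusted p = 0.0019), where 4.82% of genes were. That of *Ryr3* was lost without E14.5 control 2 (edgeR adjusted p = 0.076) and that of *Ryr1* without E18.5 control 1 (edgeR adjusted p = 0.11). With regions set by distance from the muscle edge, the stage difference of *Cacng1* was still called (−0.55 ± 0.10, edgeR adjusted p = 4.3e-04), and those of *Ryr3* (−0.27), *Cacna2d1* (−0.14) and *Ryr1* (−0.02) were not.

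In the KO at E14.5 *Ryr3* stood at 31.1 in the center against 18.8 in the periphery (0.73 ± 0.19, edgeR adjusted p = 0.019) and *Cacna2d1* at 331 against 264 (0.33 ± 0.10, edgeR adjusted p = 0.041), where 3.12% of genes were called higher. DESeq2 called neither (adjusted p = 0.12 and 0.25), and the call of *Cacna2d1* was lost without E14.5 control 1, E18.5 control 1 or E18.5 control 2 (edgeR adjusted p from 0.051 to 0.059). By distance, that of *Ryr3* was lost (edgeR adjusted p = 0.068). In the KO at E18.5 *Cacng1* stood at 253 against 364.5 (−0.53 ± 0.11, edgeR adjusted p = 0.0027), where 1.36% of genes were called lower. That call was lost with regions of 25% (−0.30, edgeR adjusted p = 0.085), and regions by distance turned it to 0.87. In the β-cat cKO *Cacng1* (−0.52 ± 0.08, edgeR adjusted p = 1.1e-05) and *Ryr1* (−0.30 ± 0.08, edgeR adjusted p = 0.013) were lower in the center, where 5.37% of genes were, and *Ryr3* was higher (0.74 ± 0.12, edgeR adjusted p = 2.4e-05), where 5.52% were. For 0 of the 7 members was the difference from the controls of the stage called by edgeR in any mutant. In the KO of E14.5, the KO of E18.5 and the cKO, 0.0779%, 0.22% and 0.645% of genes were called higher and 0.0779%, 0.368% and 0.637% lower. At an unadjusted p under 0.05 the difference passed for 2, 0 and 2 members in these groups. The share of all genes at that looser threshold is not given here, so that these counts have no background beside them.

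**Figure D3:**
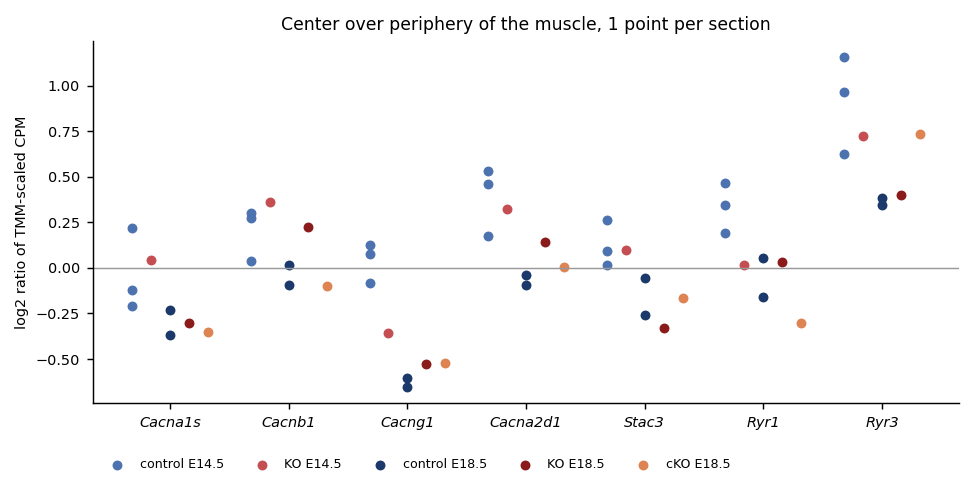
Log2 ratio of TMM-scaled CPM in the center over that in the periphery of the muscle (y axis) for each member (x axis); a point is 1 section, colored by group. *Ryr3* lies above 0 in all 8 sections (0.34 to 1.16), and *Cacng1* lies between −0.65 and −0.52 in the 4 sections at E18.5; with regions set by distance the fitted values of *Cacng1* turn to 0.87 and 0.57 in the mutants.

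Position was also read without endplate or tendon genes, as how far each muscle spot lay from the closest spot that was not muscle. Only kept spots under tissue count here. The edge therefore means nearness to captured tissue outside muscle, and the outer border of a section is not an edge. *Ryr3* was lowest at the edge in each control section. In E14.5 control 1 it had 30.3 raw CPM within 100 µm of the edge and 59.3 between 200 and 300 µm, and in E18.5 control 1 it had 53.7 and 72.4. *Cacng1* was highest at the edge in the E18.5 controls, at 387 raw CPM within 100 µm and 263 beyond 300 µm in control 1 and at 352.5 and 260.2 in control 2. In both mutants at E18.5 it was lowest within 100 µm of the edge, with 201.2 there and 330.3 beyond 300 µm in the KO, and 388 and 436 in the β-cat cKO. Spots over 200 µm from the edge were then tested against spots under 150 µm on TMM-scaled sums, not on raw CPM. The log2 fold changes were 1.098 and 0.83 for *Ryr3* in the E14.5 and E18.5 controls, both called. For *Cacng1* in the E18.5 controls the value was −0.13, which was not called. In the KO at E18.5 and the β-cat cKO, *Cacng1* turned to 0.87 and 0.57 by distance, both called higher away from the edge, against −0.53 and −0.52 with the regions set by endplate and tendon genes. The other members, *Cacna1s* included (0.58 and 0.42, the latter against −0.30 with the gene-set regions), were all called higher away from the edge at both stages. In raw CPM, *Cacna2d1* had 349.2 within 100 µm and 348.9 beyond 300 µm in E18.5 control 1, and 342.0 and 389.4 in control 2. *Cacna1s* had 60.3 and 62.5 in control 1, and 57.8 and 64.2 in control 2. The share of all genes called by distance in each direction is not given here, so that these calls have no background beside them. The muscle edge shares its spots with other tissue, so that a lower level there and a lower share of muscle in the spot cannot be told apart.

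**Figure D4:**
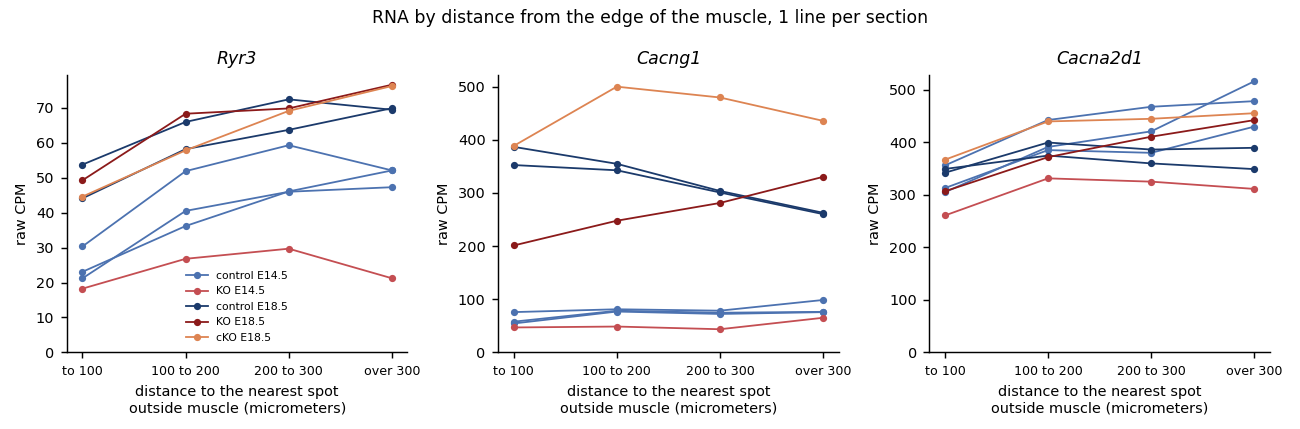
Raw CPM (y axis, from 0) of *Ryr3*, *Cacng1* and *Cacna2d1* in muscle spots by distance to the nearest spot outside muscle in µm (x axis, 4 bins); a line is 1 section, colored by group. *Cacng1* is lower beyond 300 µm in the 2 E18.5 controls (387 and 263 in control 1) and is higher beyond 300 µm in the KO at E18.5 (201.2 and 330.3).

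**Figure D5:**
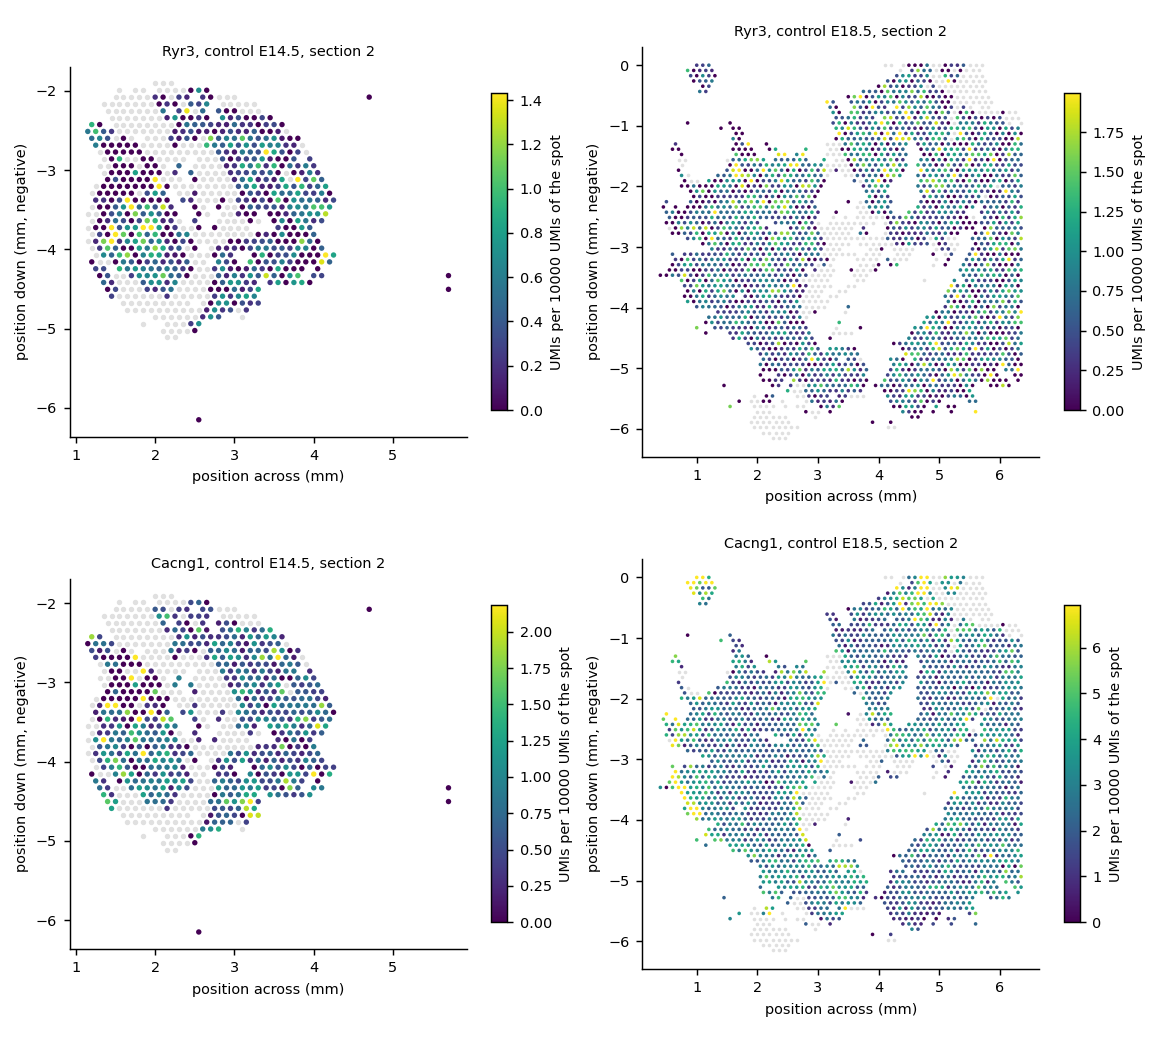
Position of the spots in mm on the slide (x and y axes) with UMIs of *Ryr3* (top) or *Cacng1* (bottom) per 10000 UMIs of the spot (color scale, capped near its top) in muscle spots of control section 2, with E14.5 in the left column and E18.5 in the right one; other spots are gray. For *Cacng1* at E18.5, this section has 352.5 raw CPM within 100 µm of the nearest spot outside muscle and 260.2 beyond 300 µm. The positions of high spots were not counted.

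At E18.5 muscle spots were also ranked by a score of slow against fast fiber genes, and the equal shares at either end were compared as slow-rich and fast-rich spots. The ranking was made within each section. The paper reports lower slow myosin RNA in the KO at E18.5 and fewer slow muscle transcripts in costal muscle of the cKO. Slow-rich spots of a mutant therefore need not be the same kind of spot as those of the controls. In the controls *Cacna1s* was lower in slow-rich spots (log2 fold change −0.36 ± 0.05, edgeR adjusted p = 1.2e-04), as were *Ryr1* (−0.31 ± 0.04, edgeR adjusted p = 4.6e-05) and *Cacnb1* (−0.15 ± 0.04, edgeR adjusted p = 0.021), where 10.5% of 14628 genes were. DESeq2 called only *Ryr1* of these 3, with adjusted p of 0.23 for *Cacna1s* and 0.89 for *Cacnb1*, and 422 genes in both directions against 2589 by edgeR. In the KO 6 members were lower in slow-rich spots, *Cacna1s* not among them (−0.25 ± 0.14, edgeR adjusted p = 0.27), where 12% of genes were. In the β-cat cKO all 7 were, from −0.36 for *Stac3* to −1.06 for *Ryr3*, where 15.2% of genes were. The difference of this log2 fold change from that of the controls had a median over the members of −0.46 in the KO and −0.36 in the cKO. The medians of all genes were −0.02 and 0.01, and each mutant is 1 section. The 2 sets of spots also differed in muscle RNA. The 8 muscle genes summed to 119969 and 121185 raw CPM in slow-rich against 136720 and 140805 in fast-rich spots of the controls, to 52205 against 89924 in the KO and to 82917 against 124111 in the cKO. Scaled to these genes, the median of all genes moved to 0.33, 1.03 and 0.92 in the 3 groups, and 5 members in the controls, 7 in the KO and 6 in the cKO turned to higher values. *Cacna1s* at −0.02 in the controls and *Ryr3* at −0.17 in the cKO did not turn.

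Across the muscle spots of the 5 control sections, correlations between the members were weak. The mean Pearson correlation of log-normalized values was highest between *Cacna2d1* and *Ryr1* (0.221), and between *Cacna1s* and *Stac3* it was 0.031. The spots of a section share a library and differ in depth, and low counts hold such values down, so that they are descriptions. Among 5989 genes with at least 0.5 UMIs per muscle spot in every control section, *Ryr1* was most like *Myl1* (0.376) and *Ryr3* most like *Myh8* (0.251), and *Cacna1s* was most like *Tnnt3* (0.165).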

How the data were processed

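Visium probe libraries of 8 diaphragm sections were read as UMI counts per gene and spot, which the authors deposited from Space Ranger 2.0.0 (E14.5 controls 1 and 2, KO at E14.5) or 2.0.1 (other sections), per the file headers, with mouse probe set v1.0 on mm10. A deposited spatial score, Moran's I per gene, was used as a description, and the p-values beside it were not used. Spots with at least 1000 UMIs were kept. Muscle spots passed an Otsu threshold on the mean log-normalized level (10000 UMIs per spot) of 8 muscle genes. The center and the periphery were the 15% of muscle spots highest in the mean z score of 8 endplate-region and 4 myotendinous genes, and fiber groups were the upper and lower of 3 equal shares by 6 slow minus 5 fast genes. Sums of UMIs for each section and region were fitted over all genes with edgeR 4.0.16 (filterByExpr, TMM, glmQLFit, glmQLFTest) in R 4.3.3, with the section as a block in contrasts within sections, and Benjamini-Hochberg adjustment with a threshold of 0.05. DESeq2 1.42.0 was an alternative. The fit across muscle sums had 3 residual degrees of freedom. The scripts were tested on simulated data. All 7 members were named, and from 2 lists of 25 and 28 pathway genes (27 of the latter in the files) up to 8 called genes per list and comparison, by size of change. The members and lists were chosen with earlier results of these data known. Sections were taken as separate samples, so that p-values measure the spread between these sections. Intervals cover counting error only. A planned comparison of muscle parts is not reported here.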

Additional observations from a re-analysis of the deposited data

Results flagged for a closer look

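Of the members, 6 values stood out because a test of the difference between stages itself passed an edgeR adjusted p under 0.05. Differences of the fiber groups between mutants and controls were not part of this count. The log2 fold change of *Cacna1s* in the CaV1.1 KO was lower at E18.5 than at E14.5, with a difference of −1.25 ± 0.20 (edgeR adjusted p = 0.024), which rests on 1 KO section per stage. The difference of *Cacnb1* between muscle spots and other spots was larger in the E18.5 than in the E14.5 controls, by 0.81 ± 0.18 on the log2 scale (edgeR adjusted p = 0.021). The difference between center and periphery was lower in the E18.5 controls for *Cacng1* (−0.65 ± 0.10), *Ryr3* (−0.60 ± 0.12), *Cacna2d1* (−0.47 ± 0.08) and *Ryr1* (−0.38 ± 0.08). With regions set by distance, only that of *Cacng1* still passed. No group had 4 or more sections, so that single sections were not tested against their group.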

How the results depend on the processing

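Beside the values below, 1488 recomputed values kept their side of the threshold. A turned direction was counted only where the main or the recomputed fit called the gene, so that uncalled values among these can have turned. Causes were not tested. The count of members called was 1 in the KO at E14.5 and became 4 with DESeq2, 2 with no low-count filter, with total UMIs or over all spots, and 0 with the 8-muscle-gene scaling or with *Ryr1* in the muscle score. It was 6 in the KO at E18.5 and became 2 with total UMIs. In the cKO it was 0 and became 3 with DESeq2, 1 with the muscle-gene scaling or total UMIs and 2 over all spots. For the difference between the KO effects it was 1 and became 2 with DESeq2, with no low-count filter and with both other scalings. For muscle against other spots between stages it was 1 and became 0 with total UMIs. With regions by distance, the members called between center and periphery became 7 of 7 at E14.5 (from 4), 6 at E18.5 (from 3), 1 in the KO at E14.5 (from 2), 7 in the KO at E18.5 (from 1), 7 in the cKO (from 3), 1 for the difference between stages (from 4), and 2 and 1 for the KO and cKO at E18.5 against controls (from 0). All genes called by distance are counted below only for the E18.5 controls and between stages. The other counts by distance therefore have no background beside them. Regions of 25% gave 0 in the KO at E18.5, DESeq2 gave 0 in the KO at E14.5, and the muscle-gene scaling gave 2 at E14.5. Slow-rich against fast-rich spots gave 1, 5 and 5 in the controls (from 3) with DESeq2, the muscle-gene scaling and 25% groups.

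Leaving out 1 control at a time, members called ranged from 0 (without E14.5 control 1 or 3) to 1 in the KO at E14.5, 0 to 2 (without E14.5 control 1) in the cKO, 0 (without E14.5 control 3) to 2 (without E14.5 control 1) for the difference between KO effects, 0 to 3 (without E18.5 control 1) for muscle against other spots between stages and 1 to 2 for the center in the KO at E14.5. Leaving out controls was not run for fiber groups, which keep 0 residual degrees of freedom.

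The replicate block gave 0 members and 0 genes called in the KO at E14.5, 0 members and 0 genes for the difference between KO effects, 2546 genes in the KO at E18.5 and 12 in the cKO. Controls with the same number did not deviate together (r = −0.33 and −0.32), so that they share only a number. With no section block, the members called were 0 for muscle against other spots between stages, 2 and 1 for the center at E14.5 and E18.5, 0 in each mutant and between stages, and 0, 2 and 1 for fiber groups in controls, KO and cKO. Genes called were then 1273, 732 and 105 for the center at E14.5, at E18.5 and between stages, and 3 for fiber groups in controls.

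Genes called in the KO at E14.5 (321) became 673 with DESeq2, 574 with no low-count filter and 5109 with the muscle-gene scaling. In the KO at E18.5 (3858) they became 12560 with the muscle-gene scaling, 8047 with total UMIs and 2450 with only the 2 groups, in the cKO (1361) 4118, 2893 and 896, and for the difference between KO effects (993) 5138 and 4702 with these scalings. For the center they became 1871 with DESeq2 at E14.5 (2970), 1329 with DESeq2 and 5689 by distance at E18.5 (2936), and 531 with DESeq2, 777 with the muscle-gene scaling and 1944 by distance between stages (1197). For fiber groups in controls (2589) they became 422 with DESeq2 and 9374 with the muscle-gene scaling. Leaving out 1 control at a time, genes called ranged from 65 (without E14.5 control 3) to 422 in the KO at E14.5, 615 (without E14.5 control 3) to 1414 in the cKO, 0 (without E14.5 control 3) to 1130 for the difference between KO effects, 3024 (without E14.5 control 2) to 5989 for muscle against other spots at E14.5, 1656 (without E14.5 control 2) to 2987 for the center at E14.5, 1441 (without E18.5 control 2) to 3148 at E18.5 and 669 (without E14.5 control 2) to 1319 between stages.

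Directions turned in 47 values that the main or the recomputed fit called. With the muscle-gene scaling, stage gave −0.82 for *Cacna1s*, −1.00121 for *Cacnb1*, −0.54 for *Cacng1*, −2.61 for *Cacna2d1*, −2.38 for *Stac3*, −1.10031 for *Ryr1* and −1.80 for *Ryr3*, and with total UMIs −0.14 for *Cacna2d1*. The KO at E18.5 gave 0.17 for *Cacnb1*, 0.69 for *Cacng1*, 0.87 for *Cacna2d1*, 1.06 for *Stac3*, 0.78 for *Ryr1* and 0.79 for *Ryr3*, and the difference between KO effects 0.80 for *Ryr1*. Fiber groups gave 0.19 for *Cacnb1*, 0.21 for *Cacna2d1*, 0.33 for *Stac3*, 0.026 for *Ryr1* and 0.20 for *Ryr3* in controls. In the KO they gave 0.79 for *Cacna1s*, 0.13 for *Cacnb1*, 0.32 for *Cacng1*, 0.47 for *Cacna2d1*, 0.36 for *Stac3*, 0.28 for *Ryr1* and 0.44 for *Ryr3*, and in the cKO 0.40, 0.39, 0.46, 0.48, 0.53 and 0.30 for the first 6 in that order. By distance, the center gave 0.58 for *Cacna1s* at E14.5, and 0.42 for *Cacna1s*, 0.56 for *Cacnb1*, 0.43 for *Cacna2d1*, 0.45 for *Stac3* and 0.53 for *Ryr1* at E18.5. It gave 0.54 for *Cacna1s*, 0.87 for *Cacng1* and 1.01 for *Stac3* in the KO at E18.5, and 0.71 for *Cacna1s*, 0.69 for *Cacnb1*, 0.57 for *Cacng1*, 0.45 for *Stac3* and 0.74 for *Ryr1* in the cKO.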
